A study of Mus musculus with 19 samples.

Results

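Mice carrying a mutation of Asxl1 (MT) were compared with wild-type mice (WT) in LK cells, the bone marrow progenitors that lack lineage markers and carry the receptor Kit. The comparison used every LK library by its group label, 6 of the 19 libraries in the series: 3 MT and 3 WT, all from animals aged 18 months. In each library RNA was counted per gene and per transposable element (TE) subfamily, a family of repeat copies known by one name. The study asks how mutant ASXL1 acts with the EHMT methyltransferases on heterochromatin in clonal hematopoiesis and chronic myelomonocytic leukemia. For a test of whether an effect differed between cell types, the 3 MT and 3 WT libraries of CD11b-positive myeloid cells of the same age were added. The labels state MT or WT and name no allele, promoter, Cre driver, strain, sex or batch. They do not say whether the replicates of a group are separate animals, so the p-values below measure the spread between these libraries, which may be technical.

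LK cells are a mixture of committed progenitors of granulocytes, monocytes, red cells, megakaryocytes and mast cells, with a minor share of multipotent stem cells. ASXL1 is a scaffold of the BAP1 deubiquitinase, which removes ubiquitin from a core histone, and its mutation is among the most frequent in clonal hematopoiesis. EHMT1 and EHMT2 form a methyltransferase complex that places a repressive mark on histone tails in silent chromatin, where many TE copies lie.

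The 6 libraries held 31853263 to 59882448 gene counts and 1021701 to 1910545 TE counts each. Replicates 2 and 3 of each group were close to one another. They differed by a chi-square per degree of freedom of 4.72 in MT and 3.02 in WT, whereas pairs of replicate 1 with another library of its group gave 19.74 to 26.68. On the leading component of the library levels (48.8% of the variance), MT replicates 2 and 3 lay at one end (-27.2 and -26.3) and WT replicates 2 and 3 at the other (24.8 and 30.6). MT replicate 1 (-4.80) and WT replicate 1 (2.84) lay between them. Whether replicates 2 and 3 are independent is not stated, so list medians and many of the gene differences below are also given within replicate 1 and within replicates 2 and 3 (mean of MT minus mean of WT, log2). Of 14113 genes tested, 4206 were called (29.8%), meaning an edgeR quasi-likelihood p under 0.05 after Benjamini-Hochberg adjustment, with 1960 higher (13.9%) and 2246 lower (15.9%) in MT. The libraries of replicates 2 and 3 carried this count: in the 4 fits that left out MT replicate 2, MT replicate 3, WT replicate 2 or WT replicate 3, in that order here and below, 991, 1185, 981 and 1074 genes were called. Leaving out MT replicate 1 gave 5144 and leaving out WT replicate 1 gave 5569. With replicates 2 and 3 of each group summed into 1 library, edgeR called 3 genes (2914 at an unadjusted p under 0.05). Of the 107 genes named in the text that were called, 52 were also called in each of the 6 fits that left out 1 library. The MT and WT libraries did not overlap in 4116 of the 4206 called genes, so a lack of overlap adds little to a call.

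The libraries carried the markers of the labelled cells. Kit was at 206.1 to 243.2 CPM, the usual unit of counts relative to library size, here scaled by TMM factors, in MT and 241.0 to 274.8 in WT libraries. Cd34, another progenitor marker, was at 164.7 to 181.0 CPM in MT and 182.8 to 191.6 in WT. Markers of lymphoid cells were low by comparison, with the 18 T and NK cell markers summing to 56.421 to 86.58 CPM and the 16 B lineage markers to 123.95 to 171.66 CPM. Markers of myeloid cells were not low: the 24 secondary granule and mature neutrophil genes summed to 1593.2 to 6630.9 CPM and the 18 monocyte and macrophage genes to 1543.7 to 1956.9 CPM. The edgeR test called Kit lower in MT (log2 fold change -0.26 ± 0.08 (SE), adjusted p = 0.0362), but its groups overlapped and replicate 1 did not show the difference (0.01, against -0.40 in replicates 2 and 3). The edgeR test did not call Cd34 (-0.13, adjusted p = 0.0743).

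A few genes differed by about the same amount in every library. Serinc3, a membrane protein that restricts retrovirus infectivity, was at 827.3, 769.9 and 762.1 CPM in the MT libraries and at 1569, 1553 and 1550 CPM in the WT libraries. The groups were far apart and each was tight. The log2 fold change of -0.99 ± 0.04 (SE; edgeR adjusted p = 0.000194) was made of -0.92 in replicate 1 and -1.02 in replicates 2 and 3. Serinc3 lies on chromosome 2 (chr2:163623272-163645131, minus strand, GRCm38), 10.3 Mb from Asxl1 (chr2:153345829-153404007, plus strand). It was also lower in CD11b-positive MT cells, by 0.51 on the log2 scale, a comparison in which 45 of 13398 genes were called (0.336%).

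Tjp1, a scaffold of tight junctions, was at 10.02, 11.09 and 10.93 CPM in MT and at 24.72, 26.79 and 28.09 CPM in WT libraries. Its log2 fold change of -1.31 ± 0.07 (SE; edgeR adjusted p = 0.000304) was the same in replicate 1 (-1.30) and in replicates 2 and 3 (-1.31). The predicted gene Gm15421 was at 0.786 to 1.10 CPM in MT and at 6.76 to 7.60 CPM in WT (log2 fold change -2.88 ± 0.16 (SE), edgeR adjusted p = 0.000304). Serinc3, Tjp1 and Gm15421 were the 3 genes called when replicates 2 and 3 were summed. Gm6334, another predicted gene, had no count in any WT library and 1.60 to 1.69 CPM in the MT libraries, at least 22.98-fold higher than a floor of 3 counts per WT library. Counts of predicted genes can hold reads of related sequences and are uncertain. In the other direction, Ldhb, the heart-type subunit of lactate dehydrogenase, was at 33.18, 34.63 and 36.54 CPM in MT and at 20.08 ± 0.072 CPM (SD, n = 3) in WT. The MT libraries all lay above the WT libraries, with a log2 fold change of 0.79 ± 0.05 (SE; edgeR adjusted p = 0.00101; 0.72 in replicate 1 and 0.82 in replicates 2 and 3).

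The 12 largest falls among called, non-predicted genes with a mean of at least 50 counts and no overlap between groups (46% of all genes tested did not overlap) included those of Cbl, Uhmk1, Zbed6 and Kcng1. Cbl, a ubiquitin ligase that turns over receptor kinases, was at 19.64, 17.08 and 17.59 CPM in MT and at 29.43, 56.05 and 56.30 CPM in WT. Every MT library lay below every WT library, but WT replicate 1 was nearer to MT than the other WT libraries (log2 fold change -1.38 ± 0.25 (SE), edgeR adjusted p = 0.0124; -0.58 in replicate 1 and -1.69 in replicates 2 and 3). The same order held for Uhmk1, a kinase that acts on RNA-binding proteins (10.33, 8.843 and 8.472 CPM in MT; 18.12, 29.38 and 26.79 CPM in WT; log2 fold change -1.43), and for Zbed6, a transcription factor encoded within an intron of another gene (-1.56). The potassium channel subunit Kcng1 was at 0.703 to 1.15 CPM in MT and at 3.202 to 3.63 CPM in WT (log2 fold change -1.89 ± 0.20 (SE), edgeR adjusted p = 0.00571). Kcng1 lies on the chromosome of Asxl1 (chr2:168260117-168281736, minus strand, GRCm38). Over the 12 genes, the difference ran from -0.33 (Nrip1, a nuclear receptor corepressor) to -1.45 (Kcng1) in replicate 1, and in replicates 2 and 3 it was smallest for Tjp1 (-1.31). The 12 largest rises ran from 0.08 (Itgb2l) to 1.58 (Serpinh1, a collagen chaperone) in replicate 1 and from 1.01 (Serpinh1) to 3.15 (Olfm4) in replicates 2 and 3. They included the cytokine genes Tnfsf13b (1.45) and Il1f9 (1.57), the acute-phase gene Orm1 (1.75) and the neutrophil genes described below.

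**Figure D1:**
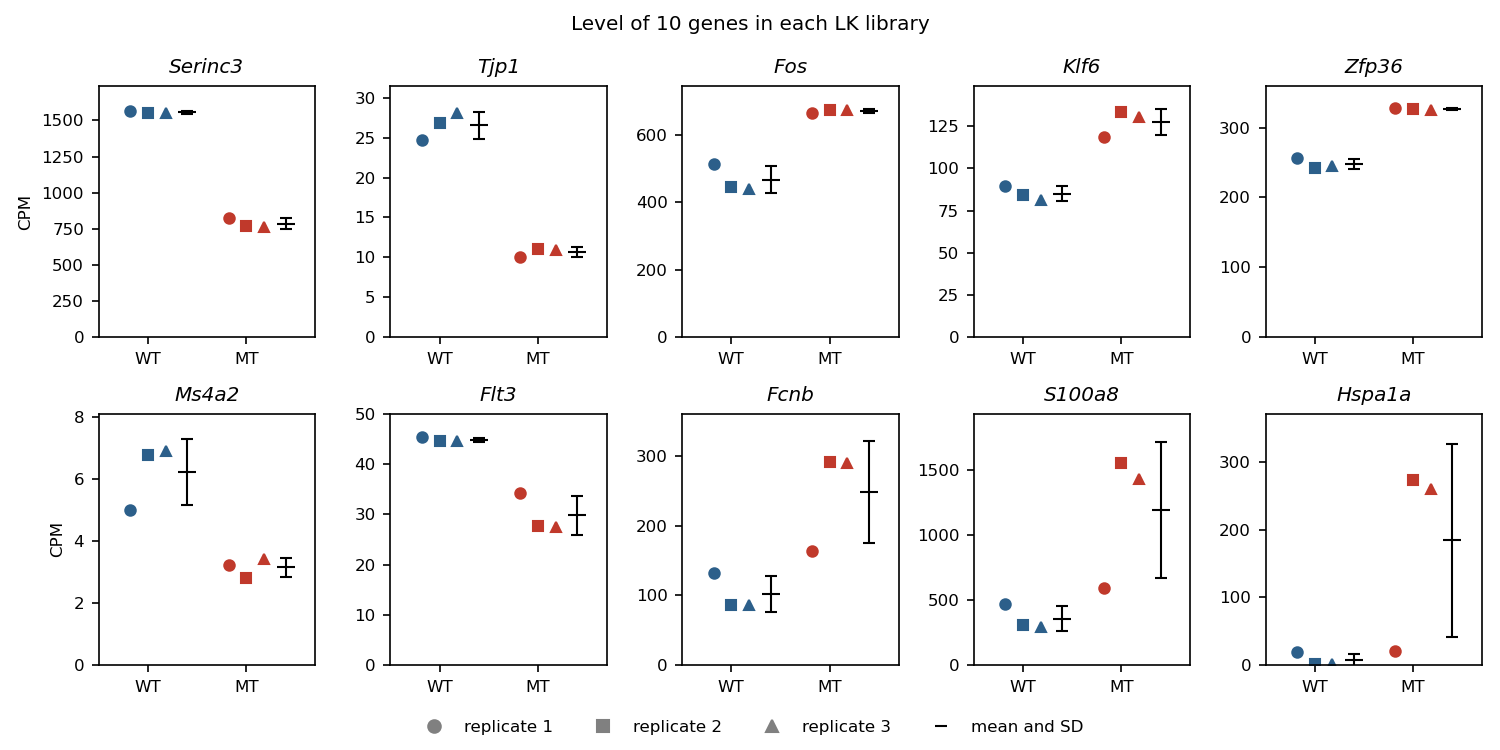
Level of 10 genes in each library, in CPM on a linear axis from 0, with 1 point per library (circle, square and triangle for replicates 1, 2 and 3) and bars for the mean and SD of 3 libraries. Serinc3, Tjp1, Fos, Klf6 and Zfp36 separate all MT from all WT libraries, whereas for Fcnb, S100a8 and Hspa1a MT replicates 2 and 3 stand far above the other 4 libraries.

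Immediate early genes were higher in MT, in replicate 1 as well as in replicates 2 and 3. These genes encode transcription factors and feedback inhibitors that cells switch on within minutes of a signal or of stress. Of 23 members tested, 14 were called higher and 0 lower in the edgeR fit, against 13.9% and 15.9% of all genes, with a median log2 fold change of 0.42 against 0.02 over all genes. The median was 0.35 in replicate 1 and 0.42 in replicates 2 and 3, and 13 to 15 members were called higher in each fit that left out 1 library. None was called with replicates 2 and 3 summed, where edgeR gave 14 members an unadjusted p under 0.05, all higher. The summed level of the list was 3759.5 to 3878.1 CPM in MT and 2778.9 to 2954.1 CPM in WT.

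The promoters of Zfp36, Dusp1 and Btg2 are printed because these genes moved together and hold the serum and cyclic AMP response motifs by which immediate early genes are known to be switched on. Each line gives the 250 bases up to the start of the gene (RefSeq, GRCm38.p6), read 5′ to 3′ on the gene's strand. For Zfp36 (chr7:28379229-28379478, minus strand) capitals mark a CArG box, the site of serum response factor, which begins 58 bases upstream of the start.
Zfp36: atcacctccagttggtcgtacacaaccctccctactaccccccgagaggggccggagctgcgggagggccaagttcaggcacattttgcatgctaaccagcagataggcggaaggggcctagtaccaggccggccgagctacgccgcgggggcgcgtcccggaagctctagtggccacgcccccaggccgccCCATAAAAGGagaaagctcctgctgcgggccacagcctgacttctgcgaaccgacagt
For Dusp1 (chr17:26508473-26508722, minus strand) and Btg2 (chr1:134079156-134079405, minus strand) capitals mark the cyclic AMP response element TGACGTCA, which begins 143 and 166 bases upstream.
Dusp1: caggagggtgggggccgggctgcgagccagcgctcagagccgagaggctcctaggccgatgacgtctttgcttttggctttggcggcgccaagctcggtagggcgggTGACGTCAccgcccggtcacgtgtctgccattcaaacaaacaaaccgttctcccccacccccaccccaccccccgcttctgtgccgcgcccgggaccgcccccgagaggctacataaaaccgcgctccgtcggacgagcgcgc
Btg2: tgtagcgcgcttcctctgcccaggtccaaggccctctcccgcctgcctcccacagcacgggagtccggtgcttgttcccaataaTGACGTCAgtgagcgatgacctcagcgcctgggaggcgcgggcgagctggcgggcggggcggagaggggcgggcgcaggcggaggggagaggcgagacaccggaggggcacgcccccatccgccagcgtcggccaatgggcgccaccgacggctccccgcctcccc
Both motifs were searched on both strands. Of the 18 list members with a promoter in the table, 1 held a CArG box (5.56%) and 2 held TGACGTCA (11.1%). Of all 27025 promoters in the table, 378 (1.4%) held a CArG box and 439 (1.62%) held TGACGTCA. These matches describe the letters only.

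The AP-1 subunits and their regulators showed the pattern one by one. Fos was at 665.8, 675.5 and 675.3 CPM in MT and at 513.1, 446.9 and 440.6 CPM in WT (log2 fold change 0.53 ± 0.06 (SE), edgeR adjusted p = 0.00627). Fosb was at 301.5, 321.9 and 321.6 CPM against 205.3, 228.9 and 227.8 (0.51), and Jun at 632.0, 685.5 and 697.3 CPM against 504.6, 489.6 and 483.9 (0.45). For each of them the lowest MT library was above the highest WT library. Junb (0.34 on the log2 scale), Jund (0.43) and Atf3 (1.25), a stress-induced partner of these factors, were also called higher. Klf6, a zinc finger factor of the same early response, was at 118.6, 133.1 and 130.3 CPM in MT and at 89.72, 84.08 and 81.21 CPM in WT (0.58 ± 0.06 (SE), edgeR adjusted p = 0.00571), and its relatives Klf2 (1.11) and Klf4 (0.42) were called higher too. The gap was wider in replicates 2 and 3 than in replicate 1 for Atf3 (1.59 and 0.56), Klf2 (1.37 and 0.60) and Fos (0.61 and 0.38), and not for Fosb (0.50 and 0.55).

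The feedback members behaved alike. Zfp36, which speeds the decay of cytokine and early response mRNAs, was at 328.6, 326.6 and 324.6 CPM in MT and at 256.4, 241.9 and 245.8 CPM in WT (log2 fold change 0.40 ± 0.04 (SE), edgeR adjusted p = 0.00561). Dusp1, a phosphatase that switches off MAP kinases, was at 200.5, 218.8 and 219.4 CPM in MT and at 160.3, 148.3 and 150.9 CPM in WT (0.47). Btg2, an antiproliferative gene, was at 91.79, 94.64 and 95.06 CPM in MT and at 72.02, 73.45 and 75.03 CPM in WT (0.35, with 0.35 in replicate 1 and 0.35 in replicates 2 and 3). None of these 3 genes overlapped between groups. The AP-1, Klf and feedback members given here with their values were called in all 6 fits that left out 1 library. The 9 members not called included Myc, Nr4a1 and Egr1. Egr1 was at 208.1, 144.5 and 139.1 CPM in MT and at 128.6, 155.3 and 151.5 CPM in WT (0.18 ± 0.16 (SE), edgeR adjusted p = 0.45), and its difference was -0.03 without MT replicate 1. With the trend of fold changes with transcript length and GC content removed (described further on), 15 members were called higher and 0 lower, where 8.16% and 10.6% of all genes were.

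Primary granule genes, the proteases and peroxidase made by promyelocytes, were higher in MT, but almost all of the difference lay in replicates 2 and 3. Of 13 members, 12 were called higher (92.3%) and 0 lower in the edgeR fit, against 13.9% and 15.9% of all genes. Their median log2 fold change was 0.31. The median was 0.04 in replicate 1 and 0.42 in replicates 2 and 3. Elane, neutrophil elastase, was at 3170, 4014 and 4045 CPM in MT and at 2992, 2517 and 2510 CPM in WT (0.49 ± 0.11 (SE), edgeR adjusted p = 0.0155). Mpo, myeloperoxidase, was at 10157, 11745 and 11959 CPM in MT and at 9952, 9387 and 9478 CPM in WT (0.23 ± 0.07 (SE), edgeR adjusted p = 0.0379). In both genes the replicate 1 libraries of the 2 groups were close to one another (0.08 and 0.03 on the log2 scale) and replicates 2 and 3 were apart. The count of 12 was 0 in each of the 4 fits that left out a replicate 2 or 3 library (edgeR; 10, 10, 12 and 12 members then had an unadjusted p under 0.05, all higher). With the length and GC trend removed, 6 members were called higher and the median was 0.18.

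Secondary granule and mature neutrophil genes showed the widest gap between replicates. Of 24 members, 8 were called higher (33.3%) and 0 lower, against 13.9% and 15.9% of all genes. Their median log2 fold change was 1.37, made of -0.21 in replicate 1 and 2.07 in replicates 2 and 3. The summed level was 2614.1, 6630.9 and 6464.2 CPM in MT and 2451.2, 1601.6 and 1593.2 CPM in WT. S100a8, a calcium-binding alarmin of neutrophils, was at 595.0, 1558 and 1430 CPM in MT and at 469.5, 308.3 and 291.0 CPM in WT (1.74 ± 0.45 (SE), edgeR adjusted p = 0.0476; 0.34 in replicate 1). Olfm4, a granule glycoprotein found in a subset of neutrophils, was at 3.27, 8.49 and 8.28 CPM in MT and at 1.55, 1.11 and 0.741 CPM in WT. It had the largest fold change of the called members (2.53 ± 0.41 (SE), edgeR adjusted p = 0.00797) and was higher in replicate 1 as well (1.06). Ltf, lactoferrin, went the other way in replicate 1: it was at 6.33, 135.2 and 140.2 CPM in MT and at 16.55, 3.61 and 3.21 CPM in WT (3.56 ± 1.44 (SE), edgeR adjusted p = 0.141). Camp and Ngp, antimicrobial granule proteins, were not called either (2.60 and 2.63). The number called was 1 in each of the 4 fits that left out a replicate 2 or 3 library, 4 without WT replicate 1, and 25 when MT replicate 1 was left out. It was 1 with the length and GC trend removed, 19 in DESeq2 and 20 in the fit of 12 libraries with CD11b-positive cells. In these bulk libraries, more cells of a type and more RNA per cell cannot be told apart.

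The promoter of Fcnb, ficolin B of the granules, is shown because C/EBP factors, among them the granulocyte factor encoded by Cebpe, are known to drive granule genes. It covers the 250 bases before the start (chr2:28084879-28085128, minus strand, RefSeq, GRCm38.p6), and capitals mark the C/EBP-type motif TTGCNNAA on either strand, at 235 and 123 bases upstream.
Fcnb: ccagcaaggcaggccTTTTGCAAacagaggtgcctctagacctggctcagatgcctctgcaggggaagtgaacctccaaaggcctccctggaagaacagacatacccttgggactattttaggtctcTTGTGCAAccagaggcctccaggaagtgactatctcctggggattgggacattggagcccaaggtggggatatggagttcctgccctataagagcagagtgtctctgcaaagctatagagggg
The motif was in 8 of the 21 list members with a promoter in the table (38.1%), in 2 of the 6 of these that were called (33.3%) and in 2582 of all 27025 promoters (9.55%). Fcnb itself was at 163.0, 290.8 and 289.8 CPM in MT and at 131.2, 86.47 and 86.45 CPM in WT (log2 fold change 1.29 ± 0.30 (SE), edgeR adjusted p = 0.0324; 0.31 in replicate 1 and 1.75 in replicates 2 and 3). MT replicate 1 was nearer to the WT libraries than to the other MT libraries.

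**Figure D2:**
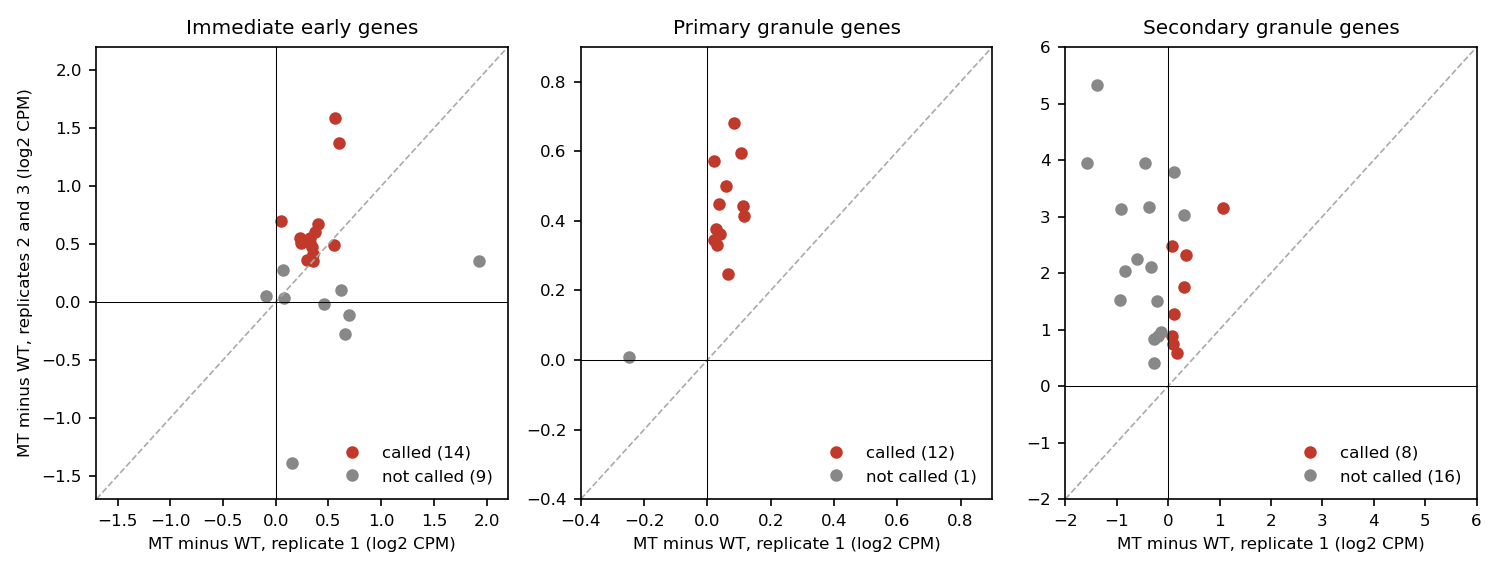
Difference MT minus WT in log2 CPM for each member of 3 gene lists, within replicate 1 (x axis) against replicates 2 and 3 (y axis), with called genes in red, others in grey and a dashed line where both would be equal. The called immediate early genes lie around the dashed line near 0.35 on x, whereas most called granule genes lie near 0 on x and rise along y, with Olfm4 at 1.06 on x.

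Among regulators of the granulocyte and monocyte choice, a larger share was called higher in MT than among all genes, and about the same share lower. Of 18 members, 7 were called higher (38.9%) and 3 lower (16.7%), against 13.9% and 15.9% of all genes. The list had a median of -0.03 in replicate 1 and 0.34 in replicates 2 and 3. Cebpe was at 70.98, 118.8 and 118.7 CPM in MT and at 65.76, 52.98 and 49.60 CPM in WT (log2 fold change 0.87 ± 0.23 (SE), edgeR adjusted p = 0.0362; 0.11 in replicate 1). Cebpd, a C/EBP factor of later stages and of inflammation, was also called higher (0.68), as was the granulocyte receptor gene Csf3r (0.33). Irf8, the factor that directs monocyte and dendritic fate, was at 222.3, 182.8 and 189.1 CPM in MT and at 240.4, 226.4 and 229.2 CPM in WT (-0.23 ± 0.07 (SE), edgeR adjusted p = 0.0455). Csf1r, the receptor of the monocyte growth factor, was at 78.90, 72.31 and 69.08 CPM in MT and at 88.80, 84.64 and 86.27 CPM in WT (-0.24 ± 0.05 (SE), edgeR adjusted p = 0.015). Both were lower in every MT library than in any WT library, with -0.11 and -0.17 in replicate 1 and -0.29 and -0.27 in replicates 2 and 3. The remaining member called lower is not reported here. Klf4, of the same list, went the other way (0.42, with 0.24 in replicate 1 and 0.51 in replicates 2 and 3). These members were picked from the list and do not describe all regulators of a lineage. Of the 18 monocyte and macrophage markers, 3 were called higher (16.7%) and 2 lower (11.1%), near the shares of all genes (13.9% and 15.9%). The chemokine receptor gene Ccr2 fell by 0.35 on the log2 scale and F13a1 by 0.24, and Ly6c2 rose by 0.48, Vcam1 by 0.71 and Cd14 by 0.87. The monocyte list had a median of -0.21 in replicate 1 and 0.46 in replicates 2 and 3, and Vcam1 (0.16 and 0.98) and Cd14 (0.04 and 1.31) differed mainly in the latter. With the length and GC trend removed, 3 regulators were called higher and 1 lower, and Cebpe, Csf3r and Csf1r were not called; without a filter on low counts 4 regulators were called higher. With a replicate 2 or 3 library left out, 1 regulator was called higher in each of the 4 fits, and 0, 1, 1 and 1 lower. Ly6c2 and Ccr2 were called in every fit that left out 1 library.

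About as many chaperone genes were called higher in MT as were not called, with most of the difference in replicates 2 and 3. Of 25 members of the heat shock list, 13 were called higher (52%) and 0 lower, against 13.9% and 15.9% of all genes. Their median log2 fold change was 0.30 (0.08 in replicate 1 and 0.47 in replicates 2 and 3). Hsph1, a nucleotide exchange factor of the HSP70 family, was at 224.8, 340.5 and 339.4 CPM in MT and at 160.8, 193.8 and 190.4 CPM in WT (0.73 ± 0.17 (SE), edgeR adjusted p = 0.0208; 0.48 in replicate 1). Hspa5, the chaperone of the endoplasmic reticulum, was at 1566, 2030 and 2010 CPM in MT and at 1370, 1302 and 1321 CPM in WT (0.49). Neither gene overlapped between groups. The inducible genes Hspa1a and Hspa1b split the libraries by replicate: Hspa1a was at 19.93, 273.9 and 261.0 CPM in MT and at 18.44, 0.979 and 1.02 CPM in WT (4.71 ± 1.64 (SE), edgeR adjusted p = 0.103), and Hspa1b at 35.14, 411.7 and 397.9 CPM against 36.27, 2.11 and 2.22. In replicate 1 MT and WT were nearly equal for both, and in replicates 2 and 3 they differed by 8.01 and 7.52 on the log2 scale. These 2 genes are close copies and can share reads. In edgeR the 4 fits that left out a replicate 2 or 3 library called 0, 1, 0 and 0 members higher, with 13 at an unadjusted p under 0.05 in each, and 5 were called without WT replicate 1.

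Several genes of basophils and mast cells were lower in MT. Of 17 members, which include eosinophil genes, 7 were called lower (41.2%) and 1 higher (5.88%) in the edgeR fit, against 15.9% and 13.9% of all genes. The median log2 fold change was -0.25, with -0.28 in replicate 1 and -0.28 in replicates 2 and 3. Ms4a2, the beta chain of the high-affinity IgE receptor, was at 3.23, 2.79 and 3.40 CPM in MT and at 5.002, 6.76 and 6.88 CPM in WT (-0.98 ± 0.16 (SE), edgeR adjusted p = 0.0071). Prss34, a mast cell and basophil protease, was at 74.84, 79.57 and 78.67 CPM in MT and at 90.91, 103.2 and 100.8 CPM in WT (-0.34). The basophil protease gene Mcpt8 was at 55.22, 59.81 and 57.17 CPM in MT and at 63.56, 71.83 and 69.85 CPM in WT (-0.25). The difference was alike in replicate 1 and in replicates 2 and 3 for Prss34 (-0.28 and -0.37) and Il1rl1 (-0.28 and -0.32), and smaller in replicate 1 for Ms4a2 (-0.63 and -1.14), Cd200r3 (-0.28 and -1.35) and Cpa3 (-0.16 and -0.46). Ms4a2, Prss34 and Mcpt8 separated the groups in all libraries, and Cpa3, Cd200r3, Il1rl1 and Il6ra were the other members called lower. Gzmb, a granule protease of cytotoxic lymphocytes also made by basophils and mast cells, was the member called higher (0.50). The eosinophil peroxidase gene Epx was not called (-0.32), and the summed level of the list overlapped between groups (932.63 to 961.94 CPM in MT and 954 to 1231.8 CPM in WT), with WT replicate 1 far above the others. The 4 fits that left out a replicate 2 or 3 library called 5, 4, 4 and 4 members lower, and the fit of 12 libraries called 3. Ms4a2, Prss34, Il1rl1 and Il6ra were called in every fit that left out 1 library.

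Erythroid genes were lower in MT replicates 2 and 3. Of 33 members, 12 were called lower (36.4%) and 1 higher (3.03%), against 15.9% and 13.9% of all genes. Their median log2 fold change was -0.12 (0.02 in replicate 1 and -0.24 in replicates 2 and 3). Ank1, the ankyrin that anchors the red cell membrane skeleton, was at 228.1, 193.3 and 191.6 CPM in MT and at 261.0, 326.8 and 334.8 CPM in WT (-0.59 ± 0.11 (SE), edgeR adjusted p = 0.00942). Car1, carbonic anhydrase of early erythroid cells, was at 1342, 1262 and 1284 CPM in MT and at 1559, 1487 and 1520 CPM in WT (-0.23 ± 0.04 (SE), edgeR adjusted p = 0.009), with -0.22 in replicate 1. Rhag, a membrane channel of red cells, was called lower as well (-0.34). All 3 were lower in every MT library. The erythroid master regulators were not called: Klf1 was at -0.03 and Gata1 at -0.09 on the log2 scale. With the length and GC trend removed they were called lower (-0.19 and -0.18), and 15 members were called lower and 0 higher, none of them higher at an unadjusted p under 0.05 in edgeR. In the fit of 12 libraries with CD11b-positive cells, 1 member was called lower (3 at an unadjusted p under 0.05). Beside these values, the summed level of the list was 8508.3 to 9283.4 CPM in MT and 9654.8 to 10077 CPM in WT. With a replicate 2 or 3 library left out, 3, 3, 4 and 5 members were called lower, and Ank1 and Rhag were called in every fit that left out 1 library.

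Most stem and multipotent genes were not called. Of 34 members 1 was called higher (2.94%) and 2 lower (5.88%), below the shares of all genes (13.9% and 15.9%). The medians pointed in opposite directions, 0.45 in replicate 1 and -0.15 in replicates 2 and 3. Flt3, the receptor of lymphoid-primed progenitors, was at 34.37, 27.70 and 27.43 CPM in MT and at 45.39, 44.74 and 44.60 CPM in WT (log2 fold change -0.59 ± 0.09 (SE), edgeR adjusted p = 0.00657). All MT libraries were below all WT libraries, by 0.40 in replicate 1 and 0.70 in replicates 2 and 3. Ly6a, which encodes Sca-1, was at 13.79, 12.88 and 13.26 CPM in MT and at 11.03, 9.02 and 8.70 CPM in WT (0.47 ± 0.10 (SE), edgeR adjusted p = 0.0128). Megakaryocyte and platelet genes split in the same manner, with a median of 0.71 in replicate 1 and -0.23 in replicates 2 and 3. In this list 2 of 24 were called, both higher (8.33%, against 13.9% of all genes). One was Fli1, a factor of megakaryocyte fate, at 65.49, 64.75 and 65.54 CPM in MT and 50.98, 52.80 and 52.01 CPM in WT (0.33 ± 0.04 (SE), edgeR adjusted p = 0.00627). The other was the platelet chemokine gene Pf4, at 134.7, 93.70 and 92.54 CPM in MT and 61.55, 78.50 and 77.78 CPM in WT (0.56 ± 0.17 (SE), edgeR adjusted p = 0.0458), where MT replicate 1 was highest. Without MT replicate 1, 9 stem members were called lower and the medians were -0.15 for stem and -0.13 for megakaryocyte genes, against 0.07 and 0.08 in all 6 libraries. With the trend removed 4 stem members were called lower. Fli1 differed by a like amount in all replicates (0.36 and 0.31), and Pf4 mostly in replicate 1 (1.13 and 0.25).

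Markers of other cell types moved with the groups in replicates 2 and 3. The B lineage list had a median log2 difference of -0.58 in replicate 1 and 0.71 in replicates 2 and 3, and the T and NK list -0.36 and 0.78. Their summed levels overlapped between groups, at 124.66 to 171.66 CPM in MT and 123.95 to 170.51 CPM in WT for B lineage markers and at 60.695 to 86.58 CPM and 56.421 to 79.152 CPM for T and NK markers. In the edgeR fit 2 of 16 B lineage members were called higher (12.5%) and 1 lower (6.25%). Of 18 T and NK members, 2 were called higher (11.1%) and 0 lower. None of these shares exceeded those of all genes (13.9% and 15.9%). Cd3e, a defining T cell marker, was at a mean of 1.56 CPM in MT and 0.574 in WT and was not called. In the MT libraries replicates 2 and 3, where granule and heat shock genes were highest, also had the higher B, T and NK sums, and WT replicates 2 and 3 had the lower ones. The part of these other cells in the granule, heat shock and erythroid differences was not tested.

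**Figure D3:**
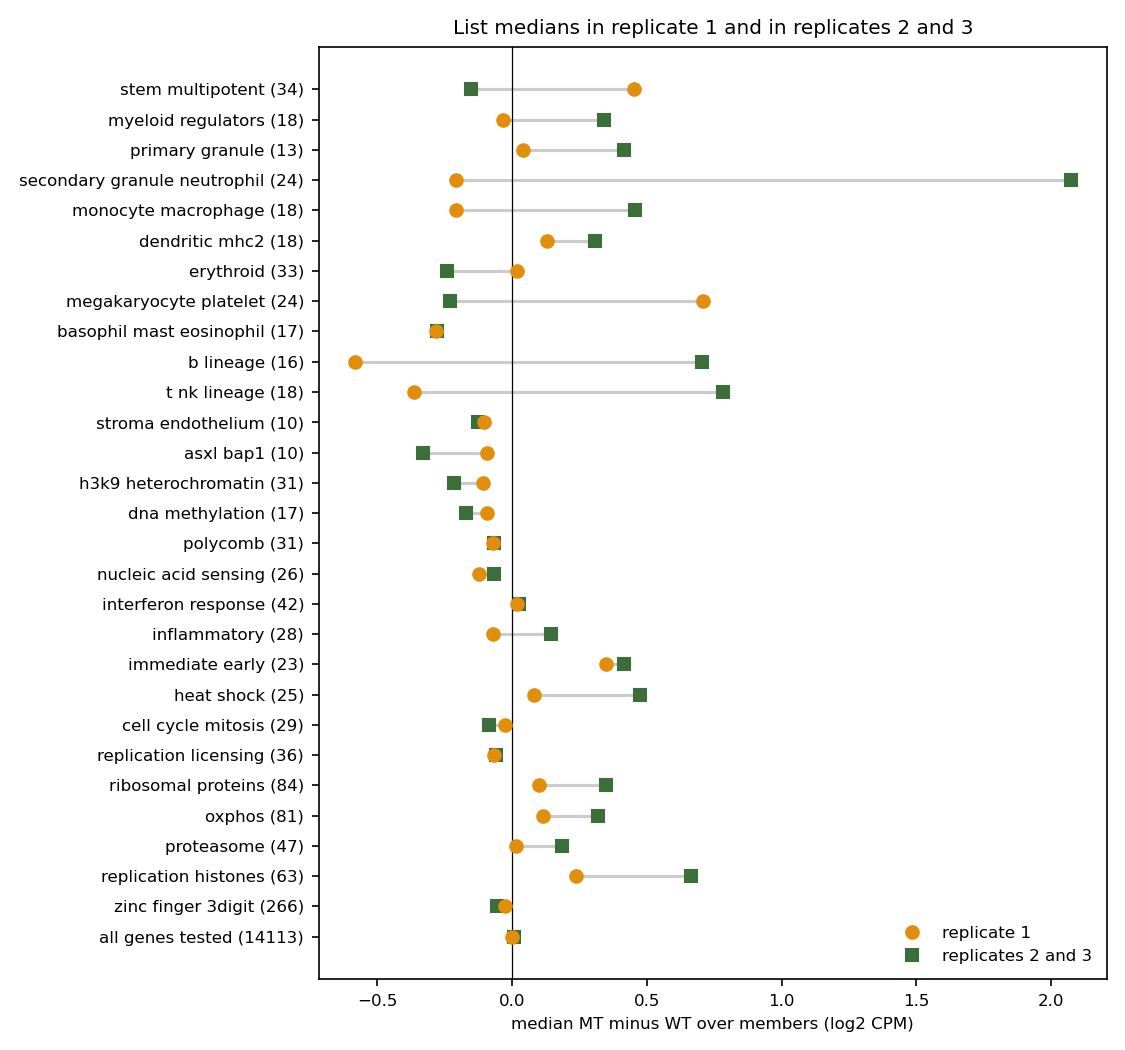
Median difference MT minus WT in log2 CPM over the members of each list (number tested in brackets), within replicate 1 (circles) and within replicates 2 and 3 (squares), with all genes tested in the bottom line. The 2 points lie close together for immediate early and basophil, mast cell and eosinophil genes and lie on opposite sides of 0 for secondary granule, megakaryocyte, stem, B lineage and T and NK lists.

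Most genes of the complex that ASXL1 belongs to were lower in MT. Of 10 members of the ASXL and BAP1 list, 6 were called lower (60%) and 0 higher, against 15.9% and 13.9% of all genes. Of all genes with transcripts from 4246 bases up, 42.8% were called lower. Asxl1 itself was at 121.1, 112.0 and 115.1 CPM in MT and at 129.6, 145.0 and 148.2 CPM in WT, and its difference was -0.10 in replicate 1 and -0.37 in replicates 2 and 3. Counts over the whole gene do not separate mutant from wild-type transcripts and so do not check the labels. Asxl2, its paralog, was at 73.67, 65.63 and 67.33 CPM in MT and at 83.73, 99.54 and 98.64 CPM in WT (log2 fold change -0.45 ± 0.07 (SE), edgeR adjusted p = 0.00777). Hcfc1, a large scaffold that BAP1 binds, was at 334.4, 316.3 and 323.7 CPM in MT and at 392.6, 484.5 and 490.9 CPM in WT (-0.49 ± 0.08 (SE), edgeR adjusted p = 0.00795). The forkhead partner gene Foxk1 (-0.29), the glycosyltransferase gene Ogt (-0.25) and Mbd5 (-0.30) were the other members called. Bap1, the enzyme, was not called (-0.10 ± 0.04 (SE), edgeR adjusted p = 0.112). These are long transcripts, with a median length of 5008 bases over the list, and with the length and GC trend removed 3 of the 10 were called lower: Asxl1 was then at -0.05, Asxl2 at -0.14 and Hcfc1 at -0.23. As deposited, with a replicate 2 or 3 library left out, 2, 2, 3 and 3 members were called lower, with Asxl2 and Hcfc1 called each time.

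Heterochromatin and DNA methylation genes shared this direction. Of 31 members of the heterochromatin list, 18 were called lower (58.1%) and 1 higher (3.23%), against 15.9% and 13.9% of all genes. With the trend removed 10 were called lower and 1 higher, where 10.6% and 8.16% of all genes were. Ehmt2 was not called (-0.07 ± 0.04 (SE), edgeR adjusted p = 0.171). Ehmt1 was at 69.40, 69.22 and 68.82 CPM in MT and at 73.25, 80.88 and 83.58 CPM in WT, a difference of -0.20 as deposited and -0.06 with the trend removed. Wiz, a zinc finger partner of the EHMT complex, was at 67.07, 64.34 and 62.53 CPM in MT and at 73.27, 81.95 and 80.37 CPM in WT. Both were lower in every MT library. Smarcad1, a remodeler that restores silent chromatin after replication, was at 44.95, 45.90 and 43.90 CPM in MT and at 52.62, 58.97 and 57.75 CPM in WT, and its difference of -0.33 as deposited was -0.55 with the trend removed. Morc2a, an ATPase recruited by the HUSH silencing complex, differed by a similar amount in replicate 1 (-0.23) and in replicates 2 and 3 (-0.32). Mphosph8, the HUSH subunit that reads the repressive mark, was at 60.78, 62.02 and 64.51 CPM in MT and at 54.06, 45.76 and 46.91 CPM in WT, higher in every MT library. Of 17 DNA methylation genes, 10 were called lower (58.8%) and 1 (Mbd3) higher (5.88%), and 4 and 0 with the trend removed. Dnmt1, the maintenance methyltransferase, was at 431.2, 405.2 and 417.5 CPM in MT and at 489.1, 563.6 and 567.5 CPM in WT (log2 fold change -0.37 ± 0.06 (SE), edgeR adjusted p = 0.00758, and -0.20 with the trend removed). With a replicate 2 or 3 library left out, 5, 8, 3 and 6 heterochromatin members and 1, 2, 1 and 1 DNA methylation members were called lower, with Smarcad1, Morc2a, Mphosph8 and Dnmt1 called in every such fit.

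Fold changes followed transcript length across the whole transcriptome. Over 13742 genes with a length, the Spearman correlation of the log2 fold change with transcript length was -0.477, given as a description because genes are not independent replicates and share libraries. It was -0.234 within replicate 1, -0.484 within replicate 2 and -0.473 within replicate 3, and 0.201 over 12474 genes in CD11b-positive cells of the same age. With genes in 5 equal bins by length, in the bin of the shortest transcripts, up to 1411 bases, 952 were called higher and 49 lower in MT. In the bin of the longest, from 4246 bases up, 69 were called higher and 1176 lower. Against the mean of the 6 libraries, levels fell with length in the MT libraries (-0.294, -0.431 and -0.418) and rose in WT replicates 2 and 3 (0.480 and 0.466), with WT replicate 1 at 0.063. To remove the trends with length and GC content, a spline was fitted to the levels of each library against the mean of the 6 libraries. The fitted trend of each library was taken out before the test was run again, and genes without a length were left as they were. The correlation was then 0.017 and 2653 genes were called (18.8%), of which 1950 were among the 4206. RNA integrity values are not used here, and the part of RNA quality in the trend was not tested.

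**Figure D4:**
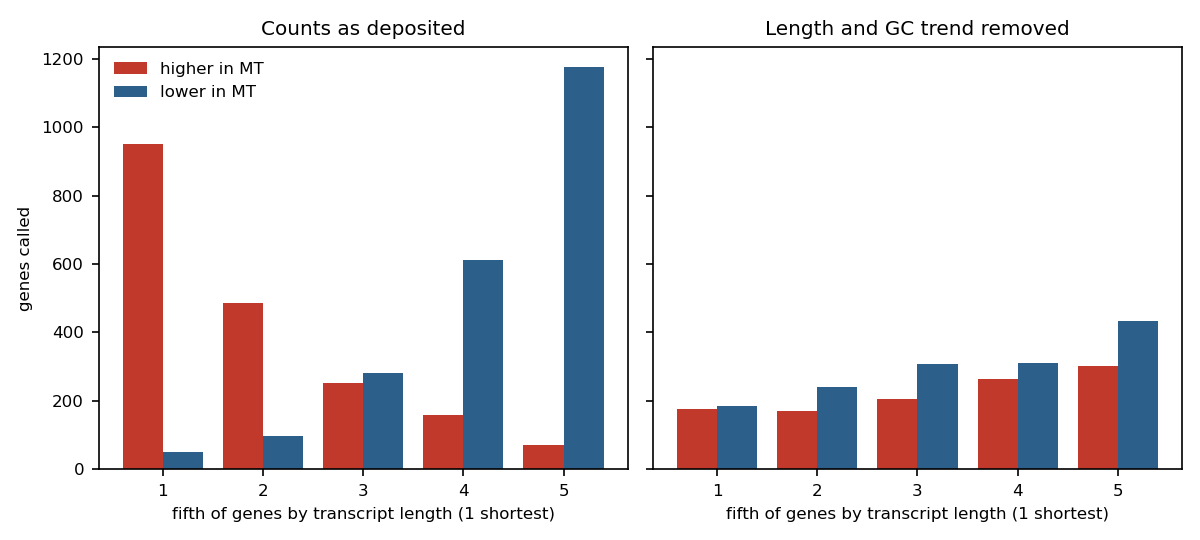
Number of genes called higher (red) and lower (blue) in MT, for each of 5 equal bins of genes by transcript length from the shortest (1) to the longest (5), from the counts as deposited (left) and with the length and GC trend removed (right). On the left, calls shift from 952 higher and 49 lower in the shortest bin to 69 and 1176 in the longest, and on the right every bin holds calls in both directions, with more lower than higher.

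Gene groups with short transcripts were higher in MT along this trend. In the bin of the shortest transcripts 34.6% of all genes were called higher and 1.78% lower. The shares called higher were 84.5% for ribosomal protein genes, 72.8% for oxidative phosphorylation and 42.6% for the proteasome. For histone genes, with a median transcript length of 539 bases, the share was 30.2%, below that of the bin. Of 84 ribosomal protein genes, with a median transcript length of 772.5 bases, 71 were called higher and 1 lower (median log2 fold change 0.26), against 16 and 2 with the trend removed. Rps15, of the small subunit, was at 1382, 1433 and 1470 CPM in MT and at 1205, 1049 and 1057 CPM in WT, with a difference of 0.37 as deposited and 0.11 with the trend removed. Ribosomal protein genes have many near-identical pseudogenes, so their counts are uncertain. Of 81 genes of oxidative phosphorylation 59 were called higher and 1 lower, against 17 and 3 with the trend removed. Ndufa6, a subunit of complex I, was at 91.63, 96.48 and 93.62 CPM in MT and at 76.66, 68.84 and 69.32 CPM in WT, all MT libraries above all WT libraries. Of 47 proteasome genes 20 were called higher and 3 lower, and 3 and 3 with the trend removed. Psma8, the alpha subunit of germ cells, was the strongest of those called lower (-1.40). Of 63 histone genes 19 were called higher and 0 lower, with a median of 0.54 (0.24 in replicate 1 and 0.66 in replicates 2 and 3), and 9 and 0 with the trend removed. The 4 fits that left out a replicate 2 or 3 library called 5, 14, 9 and 14 ribosomal protein genes, 24, 32, 22 and 24 genes of oxidative phosphorylation and 3, 4, 2 and 3 histone genes higher, and 1 proteasome gene each.

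Cell cycle genes moved less, and mostly down. Of 29 mitotic and cell cycle genes 11 were called lower (37.9%) and 2 higher (6.90%). Of 36 replication and licensing genes 10 were called lower (27.8%) and 3 higher (8.33%). Over all genes these shares were 15.9% and 13.9%. The list medians were -0.04 and -0.06. Mki67, the proliferation antigen, was at 1084, 945.3 and 966.2 CPM in MT and at 1163, 1415 and 1438 CPM in WT (log2 fold change -0.42 ± 0.09 (SE), edgeR adjusted p = 0.0131). With the trend removed its difference was -0.10. Top2a, the mitotic topoisomerase, was at 707.2, 670.4 and 676.4 CPM in MT and at 813.0, 932.1 and 949.1 CPM in WT (-0.39). Pole, the leading-strand polymerase, was at 110.7, 94.99 and 97.55 CPM in MT and at 130.3, 159.7 and 155.6 CPM in WT (-0.56). All 3 were lower in every MT library. With a replicate 2 or 3 library left out, 2 of the mitotic and cell cycle genes were called lower in each case, and 2, 1, 1 and 2 of the replication and licensing genes. Top2a and Pole were called in every such fit.

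Interferon and inflammatory genes showed no common direction. Of 42 interferon response genes 5 were called higher (11.9%) and 4 lower (9.52%), below the shares of all genes (13.9% and 15.9%). Their median log2 fold change was 0.06. Those higher included Irf1 (0.22), Ifitm3 (0.27), Psmb9 (0.30) and the chemokine gene Cxcl10 (0.52), and lower were Ifit2 (-0.28), Parp14 (-0.22), Oasl1 (-0.33) and Oas3 (-0.44). Of 28 inflammatory genes 2 were called higher (7.14%) and 3 lower (10.7%), also below the shares of all genes. Tnf (0.35) and Cd14 (0.87) were higher, and Il6 (-0.86), Nfkb1 (-0.16) and Tnfaip3 (-0.26) lower. In the 4 fits that left out a replicate 2 or 3 library, edgeR called 0 inflammatory genes (4, 3, 2 and 2 higher and 2, 2, 3 and 4 lower at an unadjusted p under 0.05). In the same fits it called 0 interferon response genes higher (6, 6, 4 and 4 at an unadjusted p under 0.05) and 0, 1, 1 and 1 lower, against 2 higher and 10 lower when MT replicate 1 was left out and 10 higher and 4 lower when it was WT replicate 1. With the length and GC trend removed, 1 interferon response gene was called higher and 2 lower, and Irf1, Ifitm3, Psmb9, Cxcl10, Parp14 and Oas3 were not called.

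TE transcripts were compared on the scale of the gene counts, so that a general shift would show. Whether the TE total differed depended on the scaling. Its CPM, scaled by TMM factors, summed to 31970, 33332 and 32614 in MT and to 30128, 31667 and 31519 in WT, without overlap. Relative to gene counts without these factors, the groups overlapped (exact permutation p = 0.5, values given with the LINE counts below). Of 814 subfamilies, 163 were called (20%), with 124 higher (15.2%) and 39 lower (4.79%) in MT, and in 285 the groups did not overlap (35%). Among the 163 called, the groups did not overlap in 155. With scaling by the TE counts themselves the calls were 60 higher and 56 lower, a share higher of 51.7% against 76.1%, and the median log2 fold change over all subfamilies moved from 0.08 to 0.01. With a replicate 2 or 3 library left out the 4 fits called 52, 86, 41 and 56 subfamilies, and 262 were called without WT replicate 1. Copies of a subfamily resemble one another, more closely in young than in old subfamilies. They lie in introns and untranslated ends of genes as well as between genes, and their counts can be shared.

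The LINE family L1, autonomous retrotransposons, was the family with most subfamilies called higher. Of 121 L1 subfamilies 39 were called higher and 2 lower, and 19 and 2 with scaling by TE counts. Counts of L1 were 7.68, 7.68 and 7.44 per 1000 gene counts in MT and 6.80, 6.54 and 6.38 in WT libraries, with no overlap. L1MEd, an old L1 subfamily, was at 87.40, 94.76 and 95.65 CPM in MT and at 67.01, 56.82 and 56.05 CPM in WT (log2 fold change 0.63 ± 0.08 (SE), edgeR adjusted p = 2.5e-05). L1MA4A was at 11.71, 13.22 and 12.90 CPM in MT and at 8.10, 7.37 and 6.85 CPM in WT (0.76 ± 0.10 (SE), edgeR adjusted p = 3.85e-05). Both were also called with replicates 2 and 3 summed, a fit that called 13 subfamilies, and in every fit that left out 1 library. Summed over the class, LINE counts per 1000 gene counts were 8.0 ± 0.138 (SD, n = 3) in MT libraries against 6.97 ± 0.190 (SD, n = 3) in WT libraries (two-sided exact permutation p = 0.1, the smallest that 3 against 3 libraries allow, adjusted p = 0.167). All TE counts together were 32.2, 32.7 and 31.9 per 1000 gene counts in MT and 30.2, 32.2 and 32.1 in WT. These totals overlapped between groups (exact permutation p = 0.5, adjusted p = 0.625).

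SINE counts were higher through 6 of 35 subfamilies called, 3 of B2 and 3 of Alu (B1), with none called lower. The share called higher was 17.1%, against 15.2% of all TE subfamilies. With scaling by TE counts 5 were called higher and 2 lower. B2, a family copied from a transfer RNA gene, stood at 5.06, 5.71 and 5.09 counts per 1000 gene counts in MT and at 4.45, 4.50 and 4.29 in WT. B2_Mm2 was at 1152, 1394 and 1240 CPM in MT and at 957.4, 892.7 and 858.4 CPM in WT (log2 fold change 0.48 ± 0.08 (SE), edgeR adjusted p = 0.000585). B2_Mm1a (0.39) and B2_Mm1t (0.47) were called higher too, and each MT library lay above all WT libraries in all 3. These 3 subfamilies contributed 36.9%, 35.9% and 30.9% of the class difference of 0.901 counts per 1000, and the called Alu subfamilies B1_Mus1, B1_Mus2 and B1_Mm a further 13.4%, 11.7% and 8.4%, so the subfamilies not called together contributed below 0. Alu (B1) counts overlapped between groups, at 4.46 to 4.57 per 1000 in MT and 3.98 to 4.54 in WT.

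LTR counts were lower in MT through abundant internal sequences of endogenous retroviruses. More of the called LTR subfamilies were higher on the gene scale, as over all TE subfamilies. Of 495 LTR subfamilies 71 were called higher (14.3%) and 27 lower (5.45%), near the shares of all subfamilies (15.2% and 4.79%). With scaling by TE counts the LTR calls turned to 30 higher and 36 lower. MMETn-int, the internal part of an early transposon of the ERVK family, was at 924.0, 857.8 and 865.0 CPM in MT and at 1270, 1460 and 1484 CPM in WT (log2 fold change -0.67 ± 0.08 (SE), edgeR adjusted p = 2.5e-05; -0.46 in replicate 1 and -0.77 in replicates 2 and 3). It alone made 49.0% of the class difference of -1.12 counts per 1000 gene counts. RLTR4_MM-int and MuLV-int, internal sequences of murine leukemia virus type (ERV1), were at 693.5, 790.7 and 806.2 CPM against 903.7, 1133 and 1132, and at 707.1, 790.4 and 810.4 CPM against 894.2, 1030.5 and 1041. They made a further 28.2% and 21.5% of the difference. IAPEz-int, of the intracisternal A particles, was at 555.2, 576.0 and 593.9 CPM in MT and at 586.7, 778.5 and 804.6 CPM in WT (-0.33 ± 0.10 (SE), edgeR adjusted p = 0.0199). Its groups overlapped, since MT replicate 3 was above WT replicate 1. MMTV-int, of the mouse mammary tumor virus, was lower by a like amount in replicate 1 (-0.81) and in replicates 2 and 3 (-0.72).

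**Figure D5:**
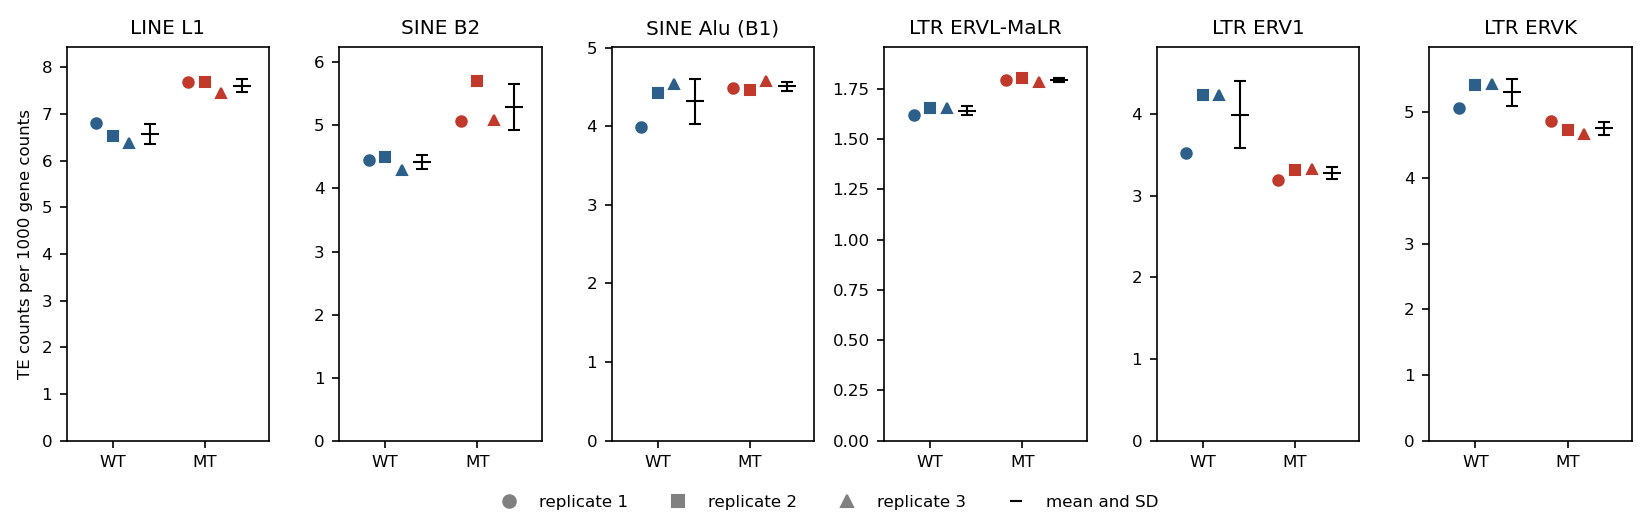
TE counts per 1000 gene counts in each library for 6 TE families, on linear axes from 0, with 1 point per library (circle, square and triangle for replicates 1, 2 and 3) and bars for the mean and SD of 3 libraries. L1, B2 and ERVL-MaLR are higher in all MT than in all WT libraries, ERV1 and ERVK are lower, and Alu (B1) overlaps.

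Whether the effect of genotype in LK cells differed from that in CD11b-positive cells was tested by an interaction term over 12 libraries. The term was called for 2904 of 13996 genes (20.7%) and 111 of 889 TE subfamilies (12.5%). Of the immediate early genes 4 of 23 were called in this test. Fosb differed by -0.66 (LK minus CD11b-positive, log2) and Klf6 by 0.53, with CD11b-positive values of 1.16 and 0.04, and the list's median in CD11b-positive cells was 0.30. Of the secondary granule genes 11 of 26 were called, with a CD11b-positive median of -0.09. For the erythroid list, 14 of 33 were called: its median was 0.97 in CD11b-positive cells against -0.12 in LK cells. Among the 5 genes per direction with the smallest p were Lmo1, which encodes a LIM-domain protein (0.97), and Map1lc3a, an autophagy gene (1.07), both higher in LK MT cells by 0.77 each, and Slc7a1 (-0.70), an amino acid transporter gene that was lower in LK MT cells by 0.46. Map1lc3a lies on chromosome 2 (chr2:155276297-155278073, plus strand, GRCm38), between Asxl1 and Serinc3. The part of a position near Asxl1 in such differences was not tested. Cd9, a tetraspanin gene, was at 68.32 to 70.38 CPM in MT and at 50.44 to 52.13 CPM in WT LK libraries, and its interaction was 0.49. With replicates 2 and 3 summed the interaction was called for 0 genes and 0 subfamilies in edgeR (1803 and 148 at an unadjusted p under 0.05).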

How the data were processed

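RNA-seq libraries were made from total RNA with a stranded kit after column extraction, per the labels' protocols. The authors deposited raw counts per gene symbol and per TE subfamily for each library; the submitters' processing notes name STAR, HTSeq, DESeq2 and the mm10 genome, and the role of each is not given in the sources used here. The smallest sum over the 6 LK libraries was 10 counts for a listed gene and 2 for a listed TE subfamily, and no mitochondrial gene was listed. The interaction used the 14420 genes and 1005 subfamilies listed for both cell types.

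Counts of the 6 LK libraries were fitted with edgeR 4.0.16 (R 4.3.3) by the quasi-likelihood test after filterByExpr and TMM scaling, with TE subfamilies on the gene scale. Log2 values used a prior count of 2. Depth is given in the report, and p-values measure spread over 3 libraries a group. Symbols were matched to GENCODE M21 (GRCm38), with 14417 of 16443 found by symbol and 1386 by synonym, for transcript length and GC content, whose trends were fitted by splines with 4 degrees of freedom each. On simulated counts of 14113 genes for the LK comparison, 90% of the genes changed 2-fold and 66% of those changed 1.41-fold were called, with 8 false calls beside 156 true ones.

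Genes were named by rule: the 12 called genes per direction with the largest change among those of at least 50 mean counts whose groups did not overlap, 3 predicted genes per direction, the 5 smallest p-values, up to 5 members a list by p, 8 TE subfamilies per direction, and 5 genes and 3 TE subfamilies per direction for the interaction. Other members and the subfamilies of murine leukemia virus, IAP, B1 and B2 were chosen after their values were seen. The comparison, its members and the gene lists were chosen with earlier results of these data known. Some list members are not reported here. Alternatives were other scaling, no filter, DESeq2 1.42.0, a replicate block, replicates 2 and 3 summed, each library left out, a fit of 12 libraries, and removal of the length and GC trend.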

Additional observations from a re-analysis of the deposited data

Results flagged for a closer look

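The effect of genotype differed between LK and CD11b-positive cells, by the edgeR interaction test over 12 libraries, for 68 of the 132 genes and TE subfamilies named in the text and tested, 29 upward and 39 downward (adjusted p from 0.000681 to 0.0497). Over all features tested, the term was called for 20.7% of genes and 12.5% of TE subfamilies. Most of the named ones were named because they were called in LK cells or by this test, so their count is no estimate of a general share. Each value below is the log2 fold change in LK cells minus that in CD11b-positive cells.

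The difference was above 0 for the granulocyte genes Mpo (0.58), Elane (0.88), S100a8 (1.86), Fcnb (1.34), Olfm4 (2.42), Itgb2l (1.99), Cebpe (0.87), Cebpd (0.60) and Orm1 (1.71). It was below 0 for the erythroid genes Ank1 (-2.42), Car1 (-2.41), Rhag (-2.45) and Klf1 (-2.32). For Ank1, Car1 and Klf1 the log2 fold changes in CD11b-positive cells were 1.84, 2.18 and 2.32, none of them called. Those in LK cells were -0.59, -0.23 and -0.03, and Klf1 was not called there. Among monocyte, stem, basophil and megakaryocyte genes the values were Ly6c2 (0.55), Ccr2 (-0.41), F13a1 (-0.44), Vcam1 (1.01), Flt3 (-0.67), Ms4a2 (-0.99), Il6ra (-0.53) and Fli1 (0.28). Among immediate early genes they were Fosb (-0.66), Klf2 (0.89) and Klf6 (0.53). Interferon, cytokine and inflammatory genes gave Irf1 (0.34), Ifitm3 (0.36), Ifit2 (-0.34), Irf7 (-0.30), Nfkb1 (-0.27), Tnfaip3 (-0.42), Tnfsf13b (1.23) and Il1f9 (1.55), and genes of nucleic acid sensing Dhx9 (-0.47), Zc3hav1 (-0.38), Eif2ak2 (-0.43) and Rnaseh2c (0.38).

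Values of the ASXL and BAP1 list were Asxl1 (-0.28), Asxl2 (-0.52), Hcfc1 (-0.55) and Foxk1 (-0.31), those of chromatin Smarcad1 (-0.45), Morc2a (-0.32), Dnmt1 (-0.41), Pcgf3 (-0.65), Suz12 (-0.27) and Bcor (-0.61), and those of the cell cycle Mki67 (-0.55), Top2a (-0.53) and Pole (-0.62). For the ribosomal gene Rps15 and the complex I gene Ndufa6 the values were 0.39 and 0.48. Among genes named for the size of their change the values were Serinc3 (-0.48), Tjp1 (-1.15), Ldhb (0.68), Uhmk1 (-1.54), Zbed6 (-1.74), Cbl (-1.64) and Nrip1 (-1.18), and among those named by the interaction test Lmo1 (0.97), Map1lc3a (1.07), Slc7a1 (-0.70) and Cd9 (0.49). Of the TE subfamilies, MMETn-int (-0.74) and RLTR4_MM-int (-0.42) were below 0 and B2_Mm2 (0.44), B1_Mm (0.44), L1MA4A (0.88) and L1MEd (0.62) above 0. In edgeR the interaction was called for 0 genes with a replicate block (4076 at an unadjusted p under 0.05) and for 83 TE subfamilies.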

How the results depend on the processing

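The count of 4206 called genes was within 1.5 times under other scaling, without a filter, in DESeq2 and in the 12-library fit. Leaving out 1 library gave 981 to 5569 genes, 41 to 262 TE subfamilies (163 in all 6) and 95 to 510 members called over the gene lists in LK (412 in all 6). With replicates 2 and 3 summed, edgeR called 3 genes, 13 TE subfamilies and 0 list members, and the interaction 0 genes (2904) and 0 subfamilies (111). Without replicate 1 of both groups, chosen after seeing the data, these were 8525, 291 and 766, from 4 libraries. With the length and GC trend removed, 2653 genes and 224 list members were called. Deviations from the group means correlated at -0.241, -0.044 and -0.0472 between libraries of the same number. Whether the numbers mark pairs cannot be decided from these values. Where MT and WT differed less in replicate 1 than in replicates 2 and 3, the replicate 1 deviations from the group means are opposite by construction. A replicate block left 3 genes and 0 list members (3 and 1 with the trend removed), 143 subfamilies, and 0 genes and 83 subfamilies for the interaction. The length correlation was -0.234 in replicate 1 and -0.648 over 8979 genes of at least 10 CPM. Of the list medians under all alternatives, 347 moved by less than the spread, 71 by more; 17 of 420, over 6 of 28 lists (stem, monocyte, megakaryocyte, stroma, interferon and proteasome), had the opposite sign, among them the proteasome list at -0.0042 (trend removed) and -0.0040 (with block). The MT minus WT difference of DNA transposons (TE share of LK libraries, DNA), in counts per 1000 gene counts, ran from -0.0418 to 0.0094 with 1 library left out, above 0 without WT replicate 2 (0.00686) or 3, and was 0.0101 with replicates summed. With the trend removed, without and with block, Mbd3 was at -0.0080 and -0.0075 and Parp14 at 0.034 and 0.040. Egr1 ran from -0.033 (without MT replicate 1) to 0.28 with 1 library left out and was at -0.12 without replicate 1 of both groups. The cause of these changes was not tested.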

Other observations

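Of 26 genes that sense or restrict foreign nucleic acid, 6 were called lower (23.1%) and 1 higher (3.85%) in the edgeR fit, where 15.9% and 13.9% of all genes were. The summed level of the list was 1451.2 to 1457 CPM in MT and 1581.7 to 1602.6 CPM in WT, with no overlap. Most of that gap lay in 1 gene, Dhx9, with a mean of 423.4 CPM in MT and 535.9 CPM in WT. Called or not, 16 members were lower and 10 higher, and 19 were not called. Dhx9, a helicase that unwinds RNA duplexes, was at 436.7, 419.2 and 414.1 CPM in MT and at 514.2, 549.1 and 544.3 CPM in WT (log2 fold change -0.34 ± 0.04 (SE), edgeR adjusted p = 0.00627). Zc3hav1, an antiviral zinc finger gene, was at 84.96, 82.71 and 81.97 CPM in MT and at 97.44, 113.2 and 116.2 CPM in WT (-0.39), and Eif2ak2, the kinase activated by double-stranded RNA, was lower by a similar amount (-0.38). Irf7, a factor that amplifies interferon, was lower too (-0.33), and Rnaseh2c, a subunit of an RNase for RNA in DNA hybrids, was higher (0.33). With the length and GC trend removed 6 members were called lower and 2 higher. Dhx9, Zc3hav1, Eif2ak2 and Rnaseh2c were called in all 6 fits that left out 1 library, and each of the 4 fits without a replicate 2 or 3 library called 3 members lower.

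Polycomb genes, whose complexes place and read repressive histone marks, gave 7 members lower and 2 higher of 31, where 15.9% and 13.9% of all genes were, with a summed level of 2459.6 to 2478.6 CPM in MT and 2543.2 to 2570.2 CPM in WT. Pcgf3, a subunit of a variant complex, was at 21.18, 21.14 and 21.21 CPM in MT and at 27.23, 29.36 and 30.46 CPM in WT (log2 fold change -0.45 ± 0.06 (SE), edgeR adjusted p = 0.00627). Suz12, of the methyltransferase complex, was lower (-0.23), as was the corepressor gene Bcor (-0.37), and Cbx6, a reader subunit, was higher (0.24). With the trend removed 5 members were called lower and 4 higher, and Suz12 (-0.07) was not called. Leaving out a replicate 2 or 3 library left 3 or 4 called lower and 0 higher (edgeR; 2 higher at an unadjusted p under 0.05). Among dendritic cell and MHC class II genes 3 of 18 were called higher (16.7%) and 2 lower (11.1%), near the shares of all genes (13.9% and 15.9%). The MHC class II genes H2-Ab1 (0.44) and Cd74 (0.53) were higher and the integrin gene Itgax was lower (-0.43). With a replicate 2 or 3 library left out, 1, 1, 0 and 0 were called higher (edgeR; 5, 4, 4 and 5 at an unadjusted p under 0.05) and 1, 1, 2 and 1 lower. In H2-Ab1, Cd74 and Itgax every MT library lay on one side of every WT library, as in 4116 of the 4206 called genes.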
